A study of Mus musculus with 4 samples.

Results

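Transcripts of 35 sarcomere and mature muscle fibre genes were followed, out of 55487 genes listed. The cells were muscle stem cells of Rbfox2 conditional knockout and Control mice. The members are the rows whose gene symbol is one of 35 symbols for contractile filament proteins, Z-disc and scaffold proteins, and enzymes and calcium-handling proteins of the muscle fibre. All 35 symbols matched exactly 1 row each, and all 35 passed the filter on low counts. The 4 RNA-seq libraries were made from satellite cells, the stem cells of skeletal muscle, taken directly from mice without culture: 2 from Rbfox2 conditional knockout mice (cKO) and 2 from Control mice. In the cKO mice a floxed Rbfox2 gene was deleted by Pax7CreERT2, a tamoxifen-inducible recombinase made only in cells that express Pax7, and a Rosa26 EYFP reporter marked the cells. The sources used here do not give the alleles or tamoxifen treatment of the Control mice, any ages, or whether each library came from a separate animal. The library codes of replicate 1 in both groups share the tag L01 and those of replicate 2 share L02, and the sources used here do not say what the tag marks. The p-values below therefore measure the spread between these libraries, which may be technical. Rbfox2 binds RNA and controls the splicing of many transcripts, and the study's title names its splicing of Numb and Notch signalling in muscle stem cell activation.

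The sarcomere is the contractile unit of striated muscle. Thick filaments of myosin slide along thin filaments of actin, with troponin and tropomyosin as the calcium switch, titin and nebulin as molecular rulers, and alpha-actinin at the Z-disc. Many of these proteins come in developmental, adult slow and adult fast isoforms, each from its own gene, and fibre types differ in the mix they hold. Satellite cells lie on the fibre without a sarcomere of their own and switch most of these genes on when they differentiate. Desmin, an intermediate filament protein that links Z-discs, is already made in myogenic precursors. In bulk RNA a smaller number of cells making a transcript cannot be told apart from less transcript per cell.

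Libraries held 68884091 and 101997422 estimated counts in cKO 1 and 2, and 84869830 and 85499716 in Control 1 and 2. The targeted gene Rbfox2 stood at 40.04 and 15.17 CPM (counts scaled to library size with edgeR's TMM factors) in cKO 1 and 2, against 131.3 and 55.98 CPM in Control 1 and 2. It fell by 1.76 on the log2 scale (SE 0.35, edgeR adjusted p = 0.000252), and some Rbfox2 RNA remained in both cKO libraries. TPM is a length-corrected level that can be compared between genes. The 12 satellite cell markers together held 17030 and 17520 TPM in cKO, against 17526 and 16889 TPM in Control, and all 12 lay above low-level background in every library. Most of that sum was Sdc4, at 10958 and 11823 TPM in cKO, against 12058 and 11384 TPM in Control. Pax7, the defining factor of satellite cells, stood at 15.9 and 13.5 TPM in cKO, against 7.90 and 6.995 TPM in Control. It was higher in both cKO libraries but short of the threshold (log2 fold change 0.84, SE 0.33, edgeR adjusted p = 0.556). Its log2 fold change was the highest of the 12 markers, of which 5 were positive and 7 negative, with a median of -0.08. The low-level background was gauged from 1421 olfactory and vomeronasal receptor genes. Their 95th percentile was 1.85 and 0.691 TPM in cKO 1 and 2, against 0.848 and 1.13 TPM in Control 1 and 2. It was highest in cKO 1, the library with the smallest total. Every library therefore has its own floor, and 21 of the 35 members lay above it in all 4 libraries while 7 lay above it in none. Those 7 were Myh1, Myh2, Myh3, Myh8, Ttn, Myot and Ryr1, and their TPM cannot be read apart from the receptor background.

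**Figure D1:**
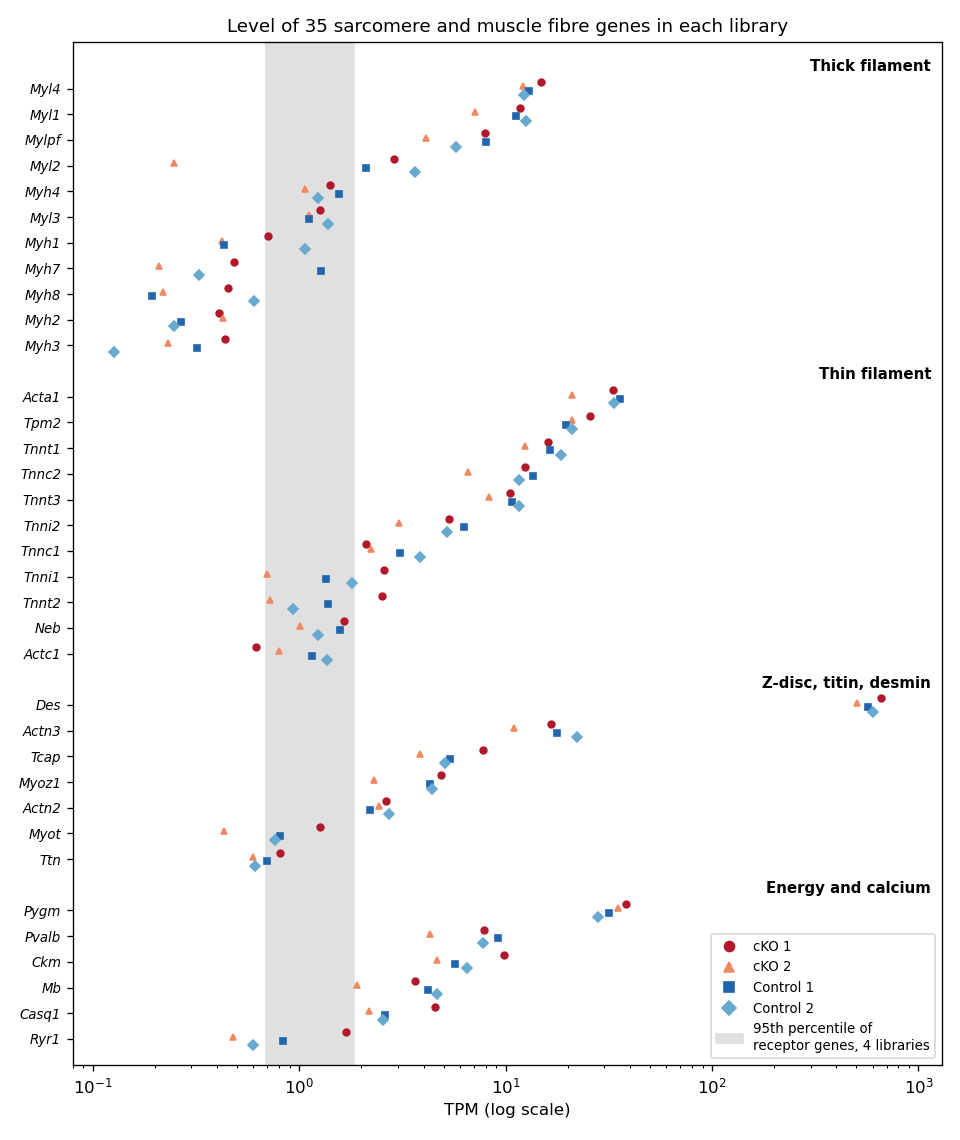
TPM (log scale) of the 35 members in each library, grouped by role and ordered by mean level, with cKO as circles and triangles and Control as squares and diamonds. The grey band spans the 95th percentiles of the receptor genes in the 4 libraries, from 0.691 to 1.85 TPM; Des stands apart at 502 to 660 TPM, and most myosin heavy chains lie in or below the band.

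Desmin made up between 70.9% and 74.3% of the summed TPM of the 35 genes in each library. Des stood at 660 and 502 TPM in cKO 1 and 2, against 573 and 602 TPM in Control 1 and 2. In TPM the groups overlapped, with cKO 1 highest and cKO 2 lowest of the 4, while in CPM both cKO libraries lay below both Control libraries (log2 fold change -0.18, SE 0.38). The next levels were far lower: averaged over each group, the muscle glycogen phosphorylase Pygm stood at 36.6 ± 2.38 TPM in cKO and 29.8 ± 2.46 TPM in Control, and skeletal alpha-actin Acta1 at 26.9 ± 8.53 TPM in cKO and 34.5 ± 1.62 TPM in Control (SD, n = 2 each). Both actin values in cKO lay below both in Control, and both Pygm values lay above. Without desmin the 34 other members summed to 255 and 174 TPM in cKO, against 235 and 235 TPM in Control. cKO 1 and cKO 2 thus lay on opposite sides of Control on this scale.

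The comparison of cKO with Control called none of the 35 genes. In edgeR's quasi-likelihood test over 38143 genes, 0 members were higher and 0 lower at an adjusted p of 0.05, where 0.551% of all genes tested were called (0.364% higher and 0.186% lower, 210 genes in all). The adjusted p of the members ran from 0.736 for Mb to 1.00. DESeq2 also called 0 of the 35, against 0.331% of genes (0.185% higher and 0.146% lower), and limma on log2(TPM + 1) called 0 of the 26 members whose TPM averaged 1 or more, against 0.308% of genes (0.209% higher and 0.0988% lower). At an unadjusted p under 0.05 there were 3 members in edgeR (Mb, Actn3 and Myl2), against 4.83% of all genes tested in edgeR. DESeq2 gave 4 members and limma 1, for which the share of all genes was not computed. Log2 fold changes were below 0 for 24 of the 35, against 45% of all genes, with a median of -0.26 against 0.06 over all genes tested. In CPM, 16 members had both cKO libraries below both Control libraries and 1 had both above, against 13.3% and 18% of all genes tested. In TPM, 7 lay below and 3 above without overlap, against 9.27% and 23.4%. Of the 35 members 26 averaged 1 TPM or more. Of the 16800 tested genes at that level, 3191 lay below and 3293 above in CPM, and 2685 and 5416 in TPM. Among those genes 8403 had a log2 fold change below 0, with a median of -0.0002. An unadjusted edgeR p under 0.05 was reached by 1284 of them. The 35 members were proposed as a group with results of these data known, so their count and median are descriptions.

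**Figure D2:**
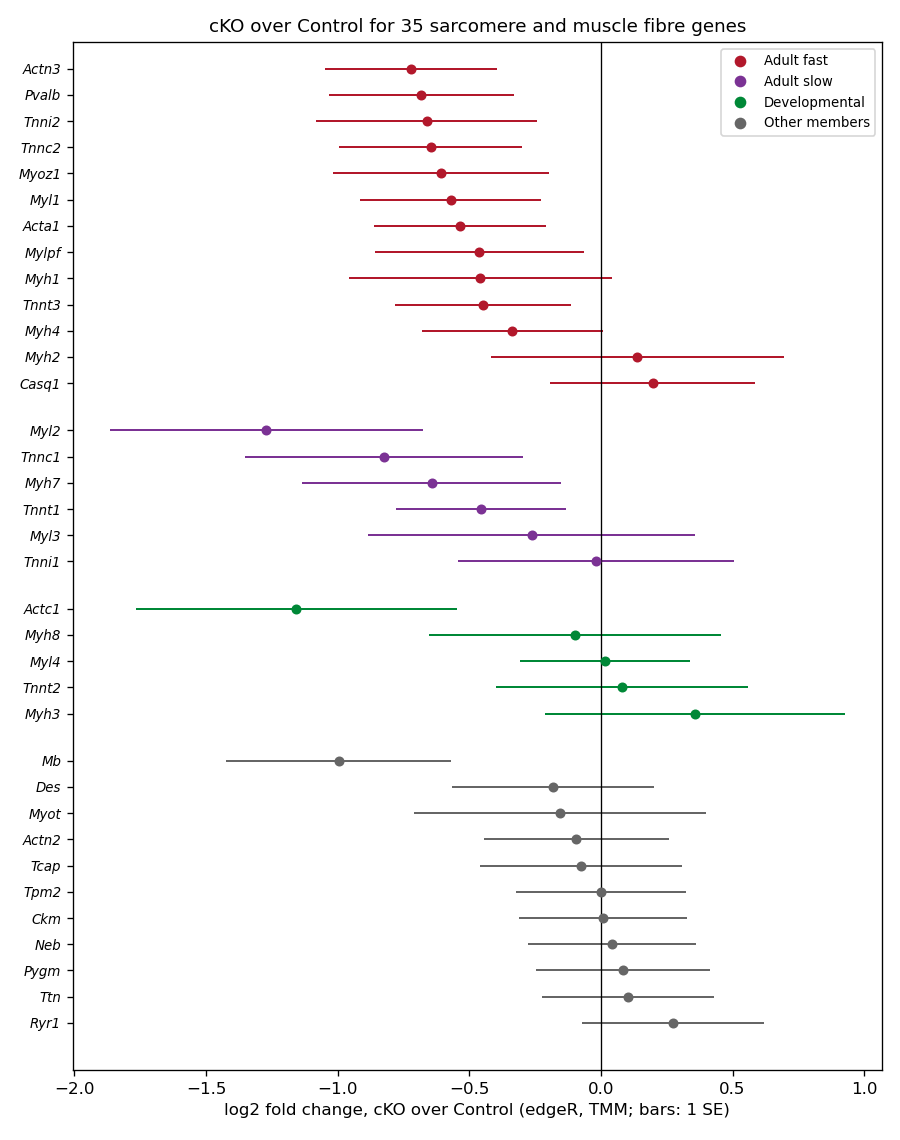
Log2 fold change of cKO over Control from edgeR for each of the 35 members (points, with 1 SE as bars), sorted within adult fast, adult slow and developmental isoforms and the other members. Of the adult fast genes, Acta1 counted among them, 11 of 13 lie left of 0, and of the slow genes 6 of 6. No gene passed the adjusted threshold.

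Among the myosin heavy chains, the motor proteins of the thick filament, the fast type IIB chain Myh4 was the most abundant. It stood at 1.40 and 1.07 TPM in cKO 1 and 2, against 1.55 and 1.23 TPM in Control 1 and 2 (log2 fold change -0.34, SE 0.34). The fast type IIX chain Myh1 stood at 0.708 and 0.424 TPM in cKO, against 0.434 and 1.06 TPM in Control, and the type IIA chain Myh2 at 0.406 and 0.427 TPM in cKO, against 0.266 and 0.248 TPM in Control. In TPM Myh2 alone of the 6 chains had groups that did not overlap, with both cKO libraries higher, but its CPM overlapped. In CPM Myh4 and Myh1 had both cKO libraries below both Control libraries. The slow chain Myh7 stood at 0.482 and 0.209 TPM in cKO, against 1.27 and 0.328 TPM in Control, so that Control 1 stood apart from the other 3. The developmental chains were as low: embryonic Myh3 stood at 0.438 and 0.230 TPM in cKO, against 0.321 and 0.127 TPM in Control. Perinatal Myh8 stood at 0.451 and 0.218 TPM in cKO, against 0.193 and 0.603 TPM in Control. Both overlapped, and of the 6 chains Myh4 alone lay above the receptor floor in 3 libraries. Myh3, Myh2, Myh1, Myh4 and Myh8 lie in this order in 1 cluster on chromosome 11, from 67078300 to 67308634 in GRCm38, and Myh7 lies on chromosome 14. Near-identical stretches make reads hard to place within this family: 30.5% of the 50-base words of Myh1 occur in other genes, 24.6% for Myh2, 20.04% for Myh7 (mostly in cardiac Myh6), 18.9% for Myh4, 12.1% for Myh8 and 4.76% for Myh3.

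The balance of developmental to adult heavy chains, as a share of TPM, did not separate the groups. Myh1, Myh2, Myh3 and Myh8 lay above the receptor floor in no library. Shares of TPM among the chains therefore cannot be read apart from the receptor background. Myh3 and Myh8 together made up 22.9% and 17.4% of the summed TPM of the 6 chains in cKO 1 and 2, against 12.7% and 20.3% in Control 1 and 2. The means were 20.1 ± 3.89% in cKO and 16.5 ± 5.37% in Control (SD, n = 2 each), a difference of 3.63 percentage points that is smaller than the SD within either group. Without Control 1, where Myh7 took 31.5% of the sum, the difference was -0.16 points, and without Control 2 it was 7.42 points. It was 0.881 points without cKO 1 and 6.38 points without cKO 2. The sum over the 6 chains was 3.89 and 2.58 TPM in cKO, against 4.04 and 3.60 TPM in Control.

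**Figure D3:**
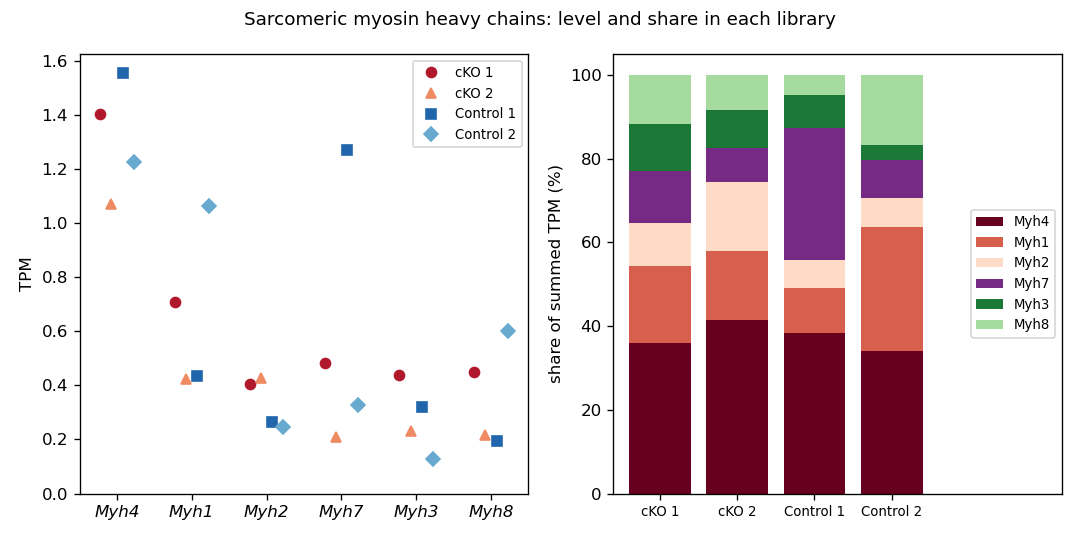
Left, TPM of the 6 sarcomeric myosin heavy chains in each library; right, the share of each chain in their summed TPM, with the cKO bars left of the Control bars. Myh4 took between 34.2% and 41.5% in all libraries, and the high share of Myh7 is seen in Control 1 alone.

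The light chains Myl4, Myl1 and Mylpf stood above every heavy chain in all 4 libraries. The developmental and atrial light chain Myl4 led the thick filament genes, at 14.8 and 12.1 TPM in cKO 1 and 2, against 12.9 and 12.2 TPM in Control 1 and 2, with overlapping groups (log2 fold change 0.02, SE 0.32). The fast essential light chain Myl1 stood at 11.7 and 7.11 TPM in cKO, against 11.2 and 12.5 TPM in Control. The fast regulatory chain Mylpf stood at 7.97 and 4.12 TPM in cKO, against 8.03 and 5.75 TPM in Control. In TPM cKO 2 was the lowest library for both fast chains and cKO 1 lay within the Control range. In CPM Myl1 stood at 3.97 and 3.39 in cKO, below both Control libraries at 5.38 and 5.56 (log2 fold change -0.57, SE 0.34), while Mylpf overlapped (-0.46, SE 0.40). The slow and ventricular chain Myl2 (chromosome 5, 122100951 to 122113472) stood at 2.86 and 0.246 TPM in cKO, against 2.11 and 3.63 TPM in Control. It rested on 73 and 13 estimated counts in cKO, against 71 and 122 in Control, and had the lowest log2 fold change of the 35 (-1.27, SE 0.60, adjusted p = 0.900). Among the members, leaving out 1 library made a call here alone. Without cKO 1 the log2 fold change was -3.004 (edgeR adjusted p = 0.00682), in a comparison that called 2.26% of all genes (1.53% higher and 0.73% lower). Without cKO 2 it was -0.57 (edgeR adjusted p = 0.690), where 5.39% of all genes were called (0.597% higher and 4.79% lower). The low level of Myl2 is that of cKO 2. Myl3, the slow essential chain, stood between 1.11 and 1.38 TPM in all 4 libraries.

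Of the 11 thin filament genes, 7 had both cKO libraries below both Control libraries in CPM, against 13.3% of all genes tested. In TPM 5 did, against 9.27%. Among the 16800 tested genes whose TPM averaged 1 or more, 3191 did in CPM and 2685 in TPM. Acta1 stood at 33.0 and 20.9 TPM in cKO 1 and 2, against 35.6 and 33.3 TPM in Control 1 and 2, and cKO lay lower in CPM as well. Its log2 fold change was -0.54 (SE 0.33, adjusted p = 1.00). Actc1, the actin of fetal muscle and adult heart, stood at 0.615 and 0.794 TPM in cKO, against 1.15 and 1.37 TPM in Control (log2 fold change -1.16, SE 0.61, adjusted p = 1.00), on 35 to 91 estimated counts a library. Both actins were lower in both cKO libraries on both scales. The slow troponin T gene Tnnt1 stood at 16.1 and 12.4 TPM in cKO, against 16.4 and 18.5 TPM in Control (-0.46, SE 0.32), again without overlap. The fast troponin C gene Tnnc2, the calcium sensor of fast fibres, stood at 12.4 and 6.54 TPM in cKO, against 13.6 and 11.7 TPM in Control (-0.65, SE 0.35), and its TPM overlapped. It is uncertain, because 47.9% of its 50-base words also lie in Ube2c on the opposite strand, a cell cycle gene at 2.92 and 1.70 TPM in cKO, against 2.23 and 2.22 TPM in Control. Tpm2, the beta tropomyosin that is also made outside skeletal muscle, stood at 25.7 and 21.1 TPM in cKO, against 19.6 and 20.9 TPM in Control, both cKO libraries being higher in TPM but not in CPM (log2 fold change 0.00, SE 0.32). Tnnt2, the cardiac and embryonic troponin T, stood at 2.51 and 0.721 TPM in cKO, against 1.38 and 0.937 TPM in Control, so that the cKO libraries enclosed Control. Of the other 5 thin filament genes, Tnnt3, Tnni2 and Tnnc1 had log2 fold changes of -0.45, -0.66 and -0.83 with cKO below Control in CPM, and Tnni1 and Neb stood at -0.02 and 0.04.

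Upstream sequences of 4 members are given to set an adult actin, desmin and developmental myosins side by side. They are 250 bases before the annotated start, read 5′ to 3′ on the gene's strand, from RefSeq on GRCm38.p6, and 28 of the 35 members had an entry. Acta1 and Des are the adult fibre actin and the most abundant member, and Myh3 and Myh8 are the developmental heavy chains. Capitals mark each match, on either strand, to the E-box CANNTG (bound by myogenic bHLH factors), the CArG box (bound by SRF), the MEF2 site and the TATA box TATAAA; where matches overlap, as the MEF2 site and a TATA box do in Myh8, the capitals run together.
Acta1 promoter (chr8:123894776-123895025, minus strand): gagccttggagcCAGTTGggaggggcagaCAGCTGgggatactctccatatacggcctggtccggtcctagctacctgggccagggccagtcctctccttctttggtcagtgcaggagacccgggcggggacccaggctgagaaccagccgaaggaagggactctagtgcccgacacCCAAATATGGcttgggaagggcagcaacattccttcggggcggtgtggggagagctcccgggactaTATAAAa
Des promoter (chr1:75360042-75360291, plus strand): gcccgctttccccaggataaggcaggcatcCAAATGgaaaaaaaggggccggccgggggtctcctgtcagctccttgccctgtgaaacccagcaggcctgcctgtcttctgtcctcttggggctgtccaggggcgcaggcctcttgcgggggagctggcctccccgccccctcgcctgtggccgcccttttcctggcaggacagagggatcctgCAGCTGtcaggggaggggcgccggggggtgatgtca
Myh3 promoter (chr11:67078050-67078299, plus strand): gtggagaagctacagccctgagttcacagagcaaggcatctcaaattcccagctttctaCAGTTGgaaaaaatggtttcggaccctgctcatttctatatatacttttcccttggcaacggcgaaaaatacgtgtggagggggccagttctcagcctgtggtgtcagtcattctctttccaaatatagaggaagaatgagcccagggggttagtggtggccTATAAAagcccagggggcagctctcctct
Myh8 promoter (chr11:67276874-67277123, plus strand): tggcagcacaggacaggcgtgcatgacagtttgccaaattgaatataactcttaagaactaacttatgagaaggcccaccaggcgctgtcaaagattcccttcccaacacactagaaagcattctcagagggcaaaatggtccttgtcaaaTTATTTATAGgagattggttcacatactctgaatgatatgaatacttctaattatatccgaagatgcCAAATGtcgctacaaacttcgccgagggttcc
Acta1 had 2 E-boxes, 1 CArG box at -73 from the start and 1 TATA box, and Des had 2 E-boxes and none of the other motifs. Myh3 had 1 E-box and 1 TATA box at -29. Myh8 had 1 E-box and 1 MEF2 site at -99. Its 1 match to the TATA box, at -96 and on the opposite strand, lies within the letters of that MEF2 site. Over the 35 windows of the 28 members, an E-box was found in 82.9%, against 66.2% of 32851 promoter windows of the same length. A CArG box was found in 11.4% (Acta1, Actc1, Myh4 and Myl3) against 1.47%, a MEF2 site in 14.3% against 2.92%, and a TATA box in 22.9% against 12.4%. In Myh1, Myh4 and Myh8 a TATA match lies within the MEF2 match, so the MEF2 and TATA shares are not separate. These matches describe letters and say nothing of which factor binds.

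At the Z-disc, the fast-fibre alpha-actinin Actn3 (chromosome 19, 4861216 to 4877909) lay lower in both cKO libraries on both scales. It stood at 16.6 and 11.02 TPM in cKO 1 and 2, against 17.7 and 22.2 TPM in Control 1 and 2. Scaled counts gave 20.8 and 20.2 CPM for cKO, against 30.2 and 37.3 CPM for Control. The edgeR log2 fold change was -0.72 (SE 0.33, adjusted p = 0.851). It was -0.73 without cKO 1, -0.77 without cKO 2, -0.88 without Control 1 and -0.58 without Control 2. Its partner Actn2, the alpha-actinin of all fibre types, stood between 2.21 and 2.72 TPM in the 4 libraries and at a log2 fold change of -0.09. Tcap, the titin cap protein, stood at 7.79 and 3.83 TPM in cKO, against 5.39 and 5.09 TPM in Control, and Myoz1, a fast-fibre Z-disc protein, at 4.84 and 2.30 TPM in cKO, against 4.28 and 4.38 TPM in Control. In TPM cKO 1 was highest and cKO 2 lowest for both. In CPM Tcap overlapped (log2 fold change -0.07, SE 0.38), but Myoz1 stood at 2.18 and 1.52 in cKO, below both Control libraries at 2.81 and 2.84 (-0.61, SE 0.41). Ttn, which encodes titin, stood at 0.804 and 0.599 TPM in cKO, against 0.700 and 0.611 TPM in Control. It is the longest of these transcripts, so its 2277 to 2734 counts a library stand for a low level, and its log2 fold change was 0.10 (SE 0.33). Myot stood between 0.432 and 1.26 TPM.

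Energy and calcium genes did not share a direction. Pygm, which breaks down glycogen, stood at 38.3 and 34.9 TPM in cKO 1 and 2, against 31.6 and 28.1 TPM in Control 1 and 2, without overlap, but its CPM overlapped and the log2 fold change was 0.08 (SE 0.33). The muscle creatine kinase Ckm stood at 9.78 and 4.65 TPM in cKO, against 5.71 and 6.53 TPM in Control (0.01, SE 0.32), with Control inside the cKO range. Myoglobin, the oxygen store Mb, stood at 3.63 and 1.90 TPM in cKO, against 4.21 and 4.63 TPM in Control. It had the smallest adjusted p of the members (edgeR log2 fold change -0.996, SE 0.43, adjusted p = 0.736), and both cKO libraries lay below both Control libraries on both scales. Of its 50-base words 23.8% also lie in Gm49540 on the opposite strand, which stood between 0.216 and 0.731 TPM. Parvalbumin, the calcium buffer of fast fibres (Pvalb), stood at 7.90 and 4.31 TPM in cKO, against 9.15 and 7.76 TPM in Control (-0.68, SE 0.35). The calcium store protein Casq1 and the release channel Ryr1 had log2 fold changes of 0.20 and 0.27 and were highest in cKO 1, where the receptor background was also highest.

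By isoform class, most adult genes had values below 0 and the developmental genes lay on either side of it. Of 13 genes counted as adult fast 11 had a negative log2 fold change, with a median of -0.54. The 13 were Myh1, Myh2, Myh4, Myl1, Mylpf, Acta1, Tnnt3, Tnni2, Tnnc2, Actn3, Myoz1, Pvalb and Casq1. Acta1, the adult fibre actin rather than a fast-fibre isoform, was counted with them, and the median is its own value. Of 6 adult slow genes 6 were negative, with a median of -0.55. Tnni1 was among them at -0.02 (SE 0.52) and changed sign with library totals only and without Control 2 or cKO 2. The 5 developmental genes had 2 negative values and a median of 0.02, which was -0.05 with 4 negative values under DESeq2's size factors. In CPM 10 of the 13 fast genes had both cKO libraries below both Control libraries, against 13.3% of all genes tested. In TPM 3 of the 13 did, against 9.27%. Of the 16800 tested genes whose TPM averaged 1 or more, 3191 lay below in this way in CPM and 2685 in TPM. The slow genes gave 3 of 6 in CPM and 2 of 6 in TPM, and the developmental genes 1 of 5 on each scale, in both cases Actc1. The difference between classes was not tested. Of the developmental genes, Myl4 alone lay above the receptor floor in all 4 libraries. Actc1 and Tnnt2 lay above it in 3, and Myh3 and Myh8 in none. Among the fast genes Myh1 and Myh2 also lay above it in none. Of the slow genes Myh7 lay above it in 1 library, and Myl2 and Myl3 in 3.

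The values of the 2 cKO libraries differed with the scale. Over the 16800 tested genes whose TPM averaged 1 or more, the median log2 ratio to the Control mean was -0.18 in cKO 1 and 0.11 in cKO 2 in CPM scaled by TMM, and 0.27 in cKO 1 and 0.01 in cKO 2 in TPM. The fast genes had medians of -0.46 and -0.69 in cKO 1 and 2 in CPM, and -0.03 and -0.74 in TPM. In each library and on each scale their median therefore lay below that of all these genes, while in TPM the fast genes of cKO 1 stood at the Control level. The slow genes had medians of -0.49 and -0.64 in CPM and -0.06 and -0.91 in TPM. The developmental genes had medians of 0.28 and -0.61 in CPM and 0.24 and -0.66 in TPM, so the cKO libraries lay on either side of Control. With library totals alone in edgeR, which moved the median of all genes tested to 0.25, the fast genes had a median of -0.35, the slow genes -0.35 and the developmental genes 0.17.

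**Figure D4:**
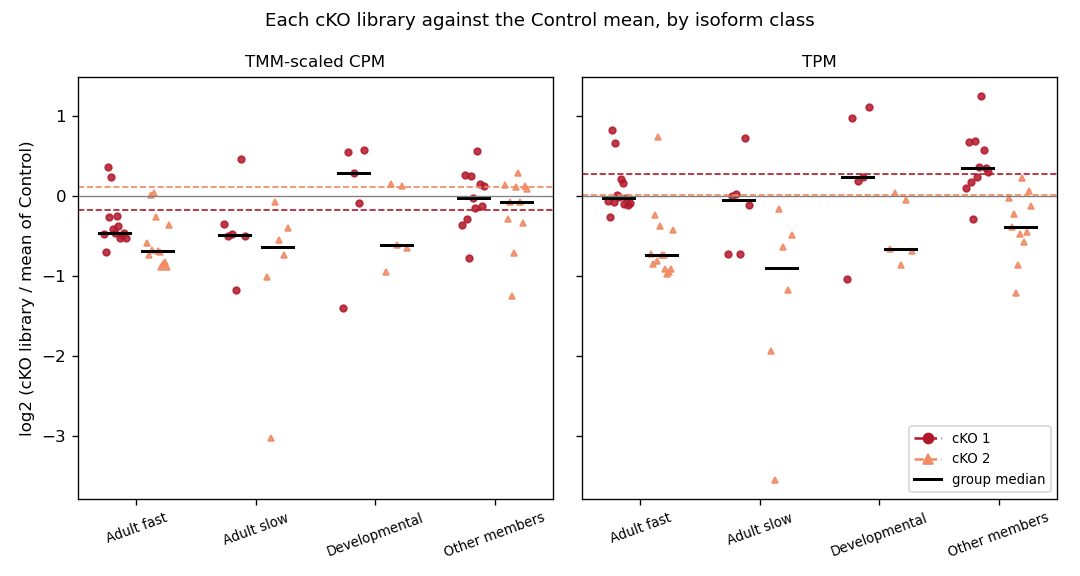
Log2 ratio of each cKO library to the mean of Control for each member, in TMM-scaled CPM (left) and TPM (right), by isoform class; black bars are class medians and dashed lines the medians of the 16800 tested genes whose TPM averaged 1 or more. Fast genes of cKO 1 have a median of -0.46 in CPM and -0.03 in TPM, and those of cKO 2 -0.69 and -0.74.

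Dividing the count of a gene by its TPM gives the mean transcript length behind the values. The genes given here were chosen after their lengths were seen. For Acta1, Myh3, Myh4 and Tcap it lay close to the longest annotated transcript in every library. For Myh1 it was 4051 and 3500 bases in cKO 1 and 2, against 6088 and 2349 bases in Control 1 and 2, where the longest transcript has 6081 bases. For Myh7 it was 6275 and 6276 bases in cKO, against 2891 and 6234 bases in Control, and Control 1, with the short length, was also the library with the high Myh7 TPM, on 174 counts. For Myh2 it was 6094 and 3475 bases in cKO, against 6115 and 6082 bases in Control. For Ryr1 it was 7533 and 11785 bases in cKO, against 8633 and 9530 bases in Control, with a longest transcript of 15358 bases. The lengths of Myh1, Myh2 and Ryr1 overlapped between the groups. Those of Myh7 were longer in both cKO libraries, by little against Control 2. Myh8 had 6182 and 4719 bases in cKO, against 4279 and 4312 bases in Control, and Neb 13126 and 16222 bases in cKO, against 11159 and 12448 bases in Control, both without overlap and not tested. Count and TPM can therefore differ in direction for these genes. The tables hold gene totals, so which transcript was used could not be compared, although splicing is what Rbfox2 acts on.

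**Figure D5:**
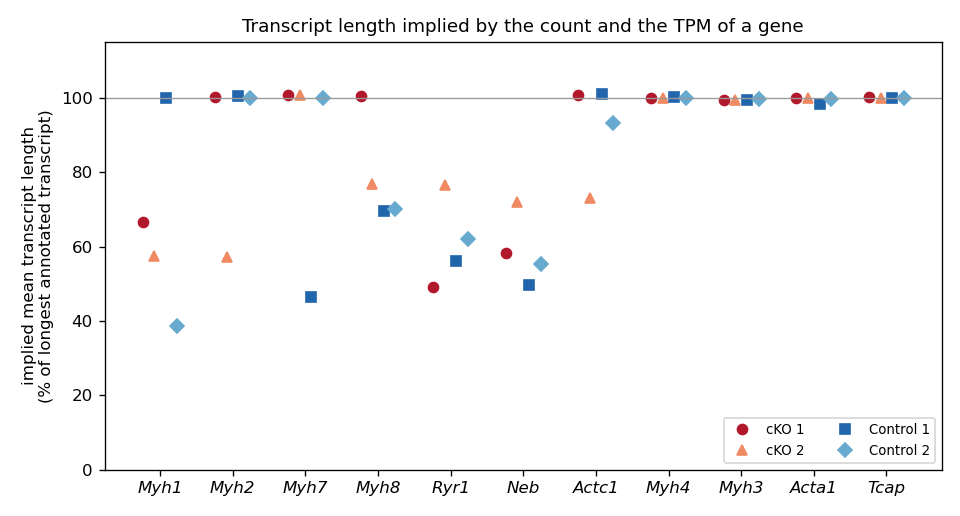
Mean transcript length implied by count and TPM, as a percentage of the longest annotated transcript, for 11 members in each library. Acta1, Myh3, Myh4 and Tcap stay near 100% in every library, whereas Myh1, Myh2, Myh7, Myh8, Ryr1, Neb and Actc1 differ between libraries of the same group.

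A further 48 genes of the sarcomere, the triad and fibre metabolism were set beside the members. None was called as higher or lower (background 0.551%), 28 were negative and the median log2 fold change was -0.06. The most abundant by CPM were Tpm3, a tropomyosin also made in non-muscle cells (log2 fold change -0.01), the calcium pump gene Atp2a2 (-0.22) and Tpm1 (0.02). The 48 genes together summed to 1051 and 1027 TPM in cKO, against 980 and 941 TPM in Control. Myocyte markers, made when satellite cells commit to fusion, had 0 of 7 tested called and a median of -0.11. Of the 7, 4 were negative and 3 positive, ranging from -1.41 to 0.91 in log2 fold change. In all 4 libraries 4 of the 8 markers lay above the receptor floor. By CPM the most abundant were the acetylcholine receptor subunit Chrna1 (0.23), the transcription factor Mef2c (-0.11) and Cdkn1c (0.91).

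Smooth muscle and pericyte markers, of cells that also make Des and Tpm2, summed to 261 and 208 TPM in cKO, against 212 and 203 TPM in Control, with 0 of 8 called. Erythroid markers rose for 5 of 7, against 0.364% of all genes, with log2 fold changes of 1.77 for Alas2 (heme synthesis) and of 1.499, 1.44, 1.44 and 1.36 for the globins Hbb-bt, Hbb-bs, Hba-a2 and Hba-a1. The 7 together summed to 1800 and 1471 TPM in cKO, against 337 and 764 TPM in Control. Endothelial markers summed to 363 and 248 TPM in cKO, against 197 and 214 TPM in Control, fibro-adipogenic markers to 1845 and 1658 TPM in cKO, against 1457 and 1655 TPM in Control. Macrophage markers summed to 52.7 and 43.4 TPM in cKO, against 29.1 and 31.0 TPM in Control, and Schwann cell markers to 136 and 137 TPM in cKO, against 96.4 and 92.5 TPM in Control. None of these 4 lists had a called gene, and no marker was at 0 in all libraries. The part of such cells, or of fibre fragments, in the levels of the members was not tested.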

How the data were processed

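The authors deposited 2 tables for the same 4 libraries: estimated counts per gene, already whole numbers, and TPM per gene. Per the submitters' processing notes, HISAT2 2.1.0, StringTie 1.3.6 and GRCm38 were used; no source used here gives the strand setting, annotation or filters. Per the labels' protocols, cDNA came from 10 ng RNA by SMART-Seq; reads of a gene and its antisense partner were treated as not separable. GENCODE M21 matched 55394 of 55487 identifiers and supplied coordinates.

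Testing of the deposited counts used edgeR 4.0.16 under R 4.3.3 (TMM, filterByExpr, robust quasi-likelihood test, Benjamini-Hochberg adjustment over all genes tested). Each SE was derived from the log2 fold change and its F statistic. CPM use TMM-scaled totals. The deposited TPM were compared with limma 3.58.1 on log2(TPM + 1), which understates changes of low genes. DESeq2 1.42.0, other scalings and filters, the replicate number as a block and each library left out were alternatives. The scripts were tested on simulated data. Replicates differed beyond counting noise (chi-square over degrees of freedom 83.5 in cKO and 49.6 in Control). With a biological coefficient of variation of 0.373, spread between libraries, not depth, limits the comparison.

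Implied transcript length is count over TPM, scaled on genes with 1 transcript and over 200 counts. The members and lists were chosen with earlier results of these data known. Values in every library were given for called members, all myosin heavy chains, the 4 most abundant of each role, and Acta1, Actc1, Tnnt2, Ckm and Ttn; for other lists, called genes or the 3 most abundant. Tnnc1, Tnni1, Tnni2, Tnnt3, Neb, Actn2, Myot, Myl3, Casq1 and Ryr1 fell outside that rule.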

Additional observations from a re-analysis of the deposited data

How the results depend on the processing

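No member was called under DESeq2 size factors, library totals, either filter on low counts, DESeq2, the replicate block or limma; the exception is Myl2 without cKO 1, at -3.004, which makes the count of called members range from 0 to 1 when a library is left out. With other pseudocounts or no filter in limma the count was also 0. Their median log2 fold change of -0.26 was -0.13 with library totals only, -0.15 in limma, -0.32 with DESeq2 size factors and from -0.54 to -0.23 with a library left out, lowest without cKO 1. It was 0.026 under the stricter filter (CPM 5 or more in 2 libraries), where 12 of the 35 members were tested, Des and Tpm2 among them, and 4 of the 13 fast genes, whose median was -0.41. The median of the fast genes stayed below 0 under each alternative for the counts and the TPM. The number of genes called over the whole table, 210, was 119 with DESeq2 size factors, 28 with no filter on low counts, 14 under the stricter filter, 93 in DESeq2, 53 in limma and from 51 to 2267 with a library left out (51 without Control 1, 56 without Control 2, 896 without cKO 1, 2267 without cKO 2). A replicate block, which is equally a block on the tag L01 or L02, gave 96. Each tag holds 1 library a group, so no test within a tag was possible. The difference between replicate 1 and replicate 2 was only weakly and negatively correlated between the groups (-0.17 over genes). The crossed pairing, added after this was seen, gave 243. No member was called under either pairing. Signs changed for at most 8 of the 35 members under any one alternative, most often for Ckm and Tpm2, whose values lie near 0. The developmental share of heavy chains differed by 4.52 points with CPM per transcript length and 2.08 without Myh7, in place of 3.63, and from -0.16 to 7.42 with a library left out. Actc1 and Myl2 rest on few counts, 35 to 91 and 13 to 122 a library.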
